A study of Mus musculus with 40 samples.

Results

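Mice that received a high-fat diet with any dose of the botanical formulation Kal-1 were compared with mice on a low-fat diet, in RNA from subcutaneous stromal vascular cells (SVCs). The comparison took every array of the 3 Kal-1 doses and of the low-fat diet at weeks 6, 9, 12 and 15, which gave 16 of the 40 arrays in the series, 12 with Kal-1 and 4 on the low-fat diet. The animals were C57BL/6J mice, put on their diets after weaning at 3 to 4 weeks of age, and the labelled weeks lie 3 weeks apart, with 56 days on diet at week 6. The low-fat group ate a diet with 10% of its calories from fat and no Kal-1. The Kal-1 groups ate a diet rich in sucrose with 60% of its calories from fat, and were given 5 µg, 20 µg or 75 µg of the formulation. Each diet had 30 animals, of which 5 were taken every 3 weeks, but the labels do not say how many mice stand behind an array. Every dose and the low-fat diet had 1 array at each week, so a single week has no replicate, and the weeks serve as blocks. Since no Kal-1 was given with the low-fat diet, the fat-rich diet and Kal-1 cannot be told apart in this comparison, and the 4 high-fat arrays without Kal-1 of the same weeks are given beside it where they bear on a result.

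The stromal vascular fraction is what remains of fat tissue after digestion once the floating adipocytes are removed. It holds preadipocytes and fibroblasts, endothelial cells, macrophages and lymphocytes, while adipocytes, muscle fibres and keratin-rich epithelium belong to the tissue around it. A diet rich in fat is known to draw macrophages and lymphocytes into fat, and dietary fat is known to repress the genes by which cells build fatty acids from sugar.

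RNA was labelled in 1 colour and measured on Agilent arrays with 40628 probes. Levels below are log2 intensities relative to the 75th percentile of their own array, so that 0 is the level of a fairly bright probe, and each difference is the mean of the 3 doses minus the low-fat array of the same week. The 75th percentile itself ran from 442 to 1793 intensity units with a median of 945, and the share of probes well above background from 65.1% to 87.2% with a median of 69.9%. A probe was tested when it stood clearly over background in 50% or more of the low-fat arrays, or of the Kal-1 arrays, which left 30902. With 4 low-fat arrays the differences are imprecise, and the median standard error over the probes tested was 0.405.

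The material held more than macrophages. All 12 genes of the macrophage list, all 12 of the fibroblast and stromal progenitor list, all 10 of the endothelial list and all 12 of the adipocyte list were well above background on each of the 16 arrays. The mean level of the macrophage list lay between 0.77 and 1.53 on the low-fat arrays and ran from 1.00 through a median of 1.38 to 2.38 on the Kal-1 arrays. That of the fibroblast list lay between 2.35 and 3.44 on the low-fat arrays and ran from 2.28 through 2.97 to 3.52 with Kal-1. Both lists overlapped between the diets, and the brightest probes belonged to Lyz2, the lysozyme of myeloid cells, and Dcn, the matrix proteoglycan decorin. The series title names infiltrating macrophages and the labelled tissue is stromal vascular cells, while the markers show RNA of fibroblasts, endothelium and adipocytes beside macrophages on all 16 arrays. The titles of the low-fat, high-fat, 5 µg and 20 µg arrays of week 9 hold the letters WS, which no label explains, and whether their material was prepared like that of the other arrays cannot be told. Without week 9, 0 probes passed and 517 had an unadjusted p under 0.05. In such mixed samples, fewer cells of a type and less RNA per cell cannot be told apart.

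Over the 4 weeks together, no gene passed the threshold. With limma, 0 of 30902 probes (0%) had an adjusted p under 0.05, and the smallest adjusted p was 0.381. At an unadjusted p under 0.05 there were 1043 probes, 400 of them higher with Kal-1 (1.29%) and 643 lower (2.08%). A t-test without weeks gave 0 probes after adjustment and 955 at an unadjusted p under 0.05. Dropping the week block gave 0 and 824. Left out, 1 week did change the count: without week 15, 150 of 29237 probes (0.513%) passed, all of them lower with Kal-1. Without the low-fat array of week 15 alone there were 145, and without the 20 µg array of that week there was 1. Leaving out week 6, 9 or 12 gave 0. The adjusted p values given below without week 15 do not allow for the choice of that week. The genes given next are therefore those with the smallest unadjusted p that differed in the same direction at all 4 weeks, and their values are a description.

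Among the higher genes, Polm had the smallest p. It encodes DNA polymerase mu, an enzyme that fills gaps during the joining of broken DNA ends. Its level was 0.07, -0.31, -0.41 and -0.15 on the low-fat arrays of weeks 6, 9, 12 and 15, and ran from 0.29 through a median of 0.76 to 1.65 on the Kal-1 arrays. Every Kal-1 array lay above every low-fat array, with weekly differences of 1.28, 1.1, 1.1 and 0.70. The fitted difference was 1.05 with a standard error of 0.23, a 2.06-fold higher level (unadjusted p = 0.000462, adjusted p = 0.863). The high-fat arrays without Kal-1 lay at 0.50, 0.44, 0.37 and 1.40, within the range of the Kal-1 arrays.

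Tbc1d14, a regulator of membrane traffic in autophagy, also separated the diets. Its low-fat levels were 1.35, 1.26, 1.1 and 1.17, against 1.41 to 2.30 with a median of 1.77 on the Kal-1 arrays. No Kal-1 array reached down to a low-fat array, although the gap between the groups was narrow. The difference was 0.60 with a standard error of 0.17 (unadjusted p = 0.00329, adjusted p = 0.863). Among the 30801 tested probes with a value on all 16 arrays, 7 had no overlap between the groups (0.0227%), all with Kal-1 above low fat. Besides Polm and Tbc1d14 these were probes of Dut, which removes dUTP from the nucleotide pool, of Rcc1, the exchange factor of the Ran GTPase, of Trim26, 1810031K17Rik and Gm13126. They were singled out after their values were seen, and their differences lay between 0.46 and 1.05.

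Tlr6, a Toll-like receptor for bacterial lipopeptides that works as a pair with Tlr2, lay at -3.88, -3.14, -4.40 and -2.37 on the low-fat arrays. The Kal-1 arrays ran from -2.79 through -1.96 to -1.43. Each of the 12 Kal-1 arrays lay above the low-fat array of its week, although the low-fat array of week 15 lay within the Kal-1 range. The difference was 1.36 with a standard error of 0.31 (unadjusted p = 0.000596, adjusted p = 0.863), and high fat alone differed from low fat by 1.08. Ddr2, a collagen receptor of fibroblasts, had low-fat levels of 1.90, 1.66, 0.44 and 2.60 and Kal-1 levels from 1.84 through 2.71 to 3.37. Here 11 of 12 Kal-1 arrays lay above their own week, with the widest gap at week 12, where the low-fat array was lowest. Its difference was 1.04 and that of high fat alone 1.47.

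Rce1, a protease that trims prenylated proteins such as Ras, differed by 0.67 with a standard error of 0.17, and Mpg, a DNA glycosylase that removes alkylated bases, by 0.77 with a standard error of 0.22. For both, 12 of 12 Kal-1 arrays lay above the low-fat array of their week. The remaining higher genes were B3gnt8, Pus7l, Ftcd, Skp2 and 5430435G22Rik, the last listed in RefSeq as Rab7b, with differences between 0.81 and 1.75. Ftcd was well above background on 2 of the 4 low-fat and 10 of the 12 Kal-1 arrays and Skp2 on 1 and 8, so their differences rest partly on dim values.

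**Figure D1:**
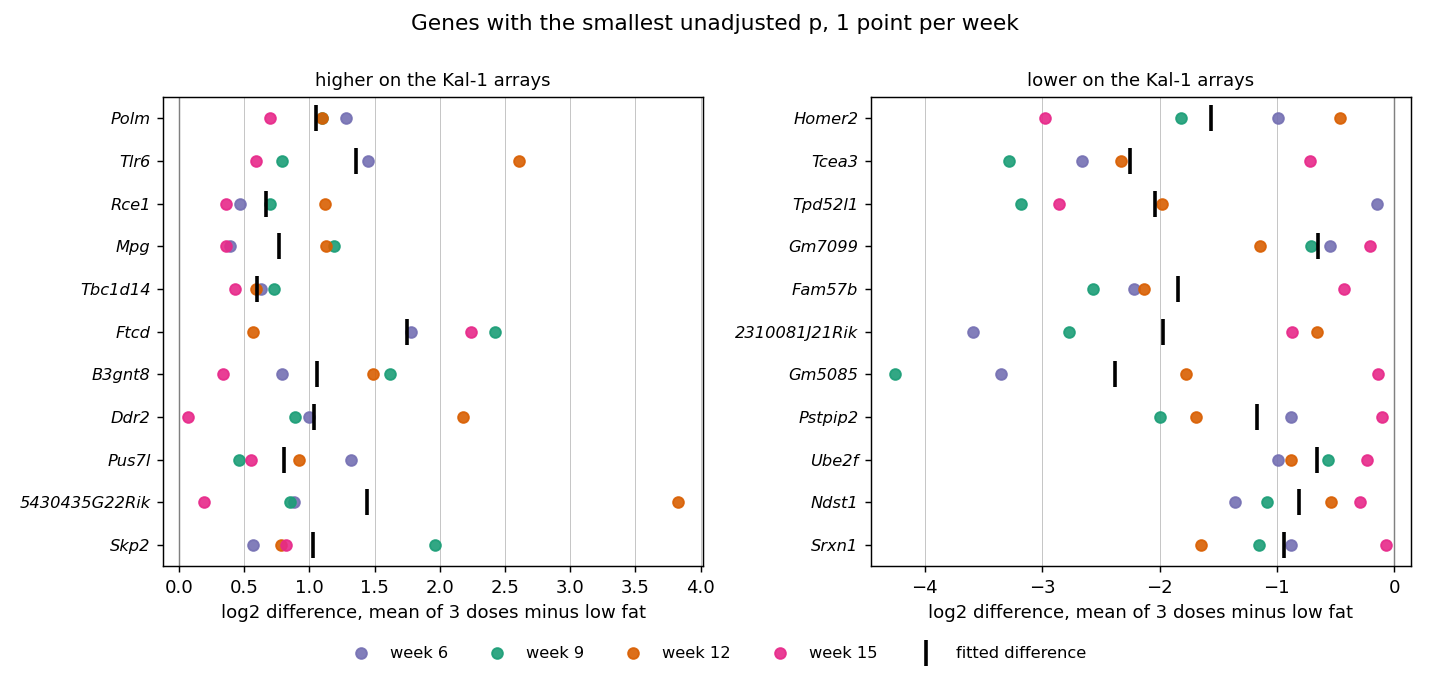
Log2 difference between the mean of the 3 Kal-1 doses and the low-fat array at each week (coloured points) for 22 of the genes with the smallest unadjusted p, with the fitted difference over the weeks as a black tick. Polm, at 1.05 over the weeks, kept all its weekly points between 0.70 and 1.28, while Tcea3 ran from -3.28 at week 9 to -0.72 at week 15.

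Among the lower genes, Tcea3 stood first by its other probe. It encodes a transcription elongation factor of the TFIIS family that is abundant in muscle. On the brighter of its 2 probes, the low-fat arrays lay at 1.5, 0.95, 0.32 and -0.66 and the Kal-1 arrays from -3.14 through -1.50 to -0.50. Each Kal-1 array lay below the low-fat array of its week, and only the low-fat array of week 15 fell within the Kal-1 range. The difference was -2.25 with a standard error of 0.52 (unadjusted p = 0.000709, adjusted p = 0.863). The other probe gave -2.60 with a standard error of 0.40 and the smallest adjusted p of all probes, 0.381. Without week 15, the adjusted p of the brighter probe was 0.0426 and that of the other 0.00569.

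Homer2, a scaffold protein of synapses that also binds calcium-release channels, was at -2.37, -2.63, -3.76 and -0.76 on the low-fat arrays and from -4.79 through -4.07 to -2.92 on the Kal-1 arrays. All 12 Kal-1 arrays lay below the low-fat array of their week, most clearly at week 15, with weekly differences of -0.99, -1.82, -0.46 and -2.98. Both of its other tested probes had the same sign. The difference was -1.56 with a standard error of 0.36 (unadjusted p = 0.00068, adjusted p = 0.863), and high fat alone also gave -1.56. Tpd52l1, a protein of vesicle traffic, had low-fat levels of 0.80, -1.08, -2.56 and -0.33 and Kal-1 levels from -5.50 through -3.65 to 0.92. The spread within Kal-1 was wide and the groups overlapped, with a difference of -2.04 and a standard error of 0.52.

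Srxn1, which restores oxidised peroxiredoxins, was at 3.71, 2.34, 3.35 and 2.31 on the low-fat arrays and from 0.76 through 1.83 to 3.22 with Kal-1. It was lower on 11 of the 12 Kal-1 arrays than on the low-fat array of the week, by -0.94 with a standard error of 0.28. Fam57b, a ceramide synthase-like protein listed in RefSeq as Tlcd3b, differed by -1.84. Pstpip2, a myeloid adaptor of the actin cytoskeleton, differed by -1.17, Ndst1, an enzyme of heparan sulfate synthesis, by -0.81, and Ube2f, a conjugating enzyme for NEDD8, by -0.66. The list closed with 2310081J21Rik, Gm5085 and Gm7099 at -1.97, -2.38 and -0.65. Of these lower genes, none separated the groups without overlap.

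The weeks looked different from one another. A probe was counted at a week when all 3 doses differed from the low-fat array by at least 2-fold in the same direction. At week 6, 525 probes (1.7%) were higher and 1258 (4.07%) lower. At week 9 the counts were 1385 (4.48%) and 1006 (3.26%), and at week 12 they were 1179 (3.82%) and 1062 (3.44%). Week 15 had the fewest, with 95 higher (0.307%) and 647 lower (2.09%). The balance of higher and lower depended on the scaling: quantile normalization gave 401 higher and 1286 lower at week 9 and 908 and 1158 at week 12, and normexp gave 161 and 533 at week 9 and 513 and 613 at week 12. These counts share 1 low-fat array within a week and have no test.

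The weeks do not share arrays, so their lists can be compared. The higher probes were mostly those of a single week: 2814 were counted at 1 week, 185 at 2 weeks and 0 at 3 or 4 weeks. Of the lower probes, 2389 were counted at 1 week, 567 at 2 weeks, 150 at 3 weeks and 0 at all 4, and 118 of the 150 at 3 weeks belong to 1 family of probes with shared sequence, described below. Weeks 6 and 9 had 449 lower probes in common, 35.7% of the list of week 6 and 44.6% of that of week 9. Weeks 12 and 15 had 13, or 1.22% and 2.01%. Among the probes counted above, 350 were counted in opposite directions at different weeks. A test of whether the weekly differences differed from each other gave 0 of 30801 probes at an adjusted p under 0.05 with limma, with 8 residual degrees of freedom, a smallest adjusted p of 0.316 and 814 probes (2.64%) at an unadjusted p under 0.05.

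Among the gene lists, the largest weekly differences were those of skeletal muscle fibre genes at weeks 6 and 9, and their direction turned at weeks 12 and 15. The list of 12 genes had mean levels of 5.83 and 5.19 on the low-fat arrays of weeks 6 and 9, -4.10 at week 12 and -0.95 at week 15. The Kal-1 arrays lay between -2.54 and -0.52 at week 6, between -2.19 and 2.27 at week 9, between -2.71 and 1.31 at week 12, and between -0.40 and 3.75 at week 15. So the low-fat array was far above all 3 doses at weeks 6 and 9 and below all 3 at weeks 12 and 15. The number of list genes at least 2-fold lower in all 3 doses was 12 of 12 at week 6 and 10 of 12 at week 9, and 9 of 12 at week 12 and 6 of 12 at week 15 were at least 2-fold higher. Of all probes, 4.07% and 3.26% were so lower at weeks 6 and 9, and 3.82% and 0.307% so higher at weeks 12 and 15. Over the 4 weeks, 12 of 12 were lower, with a median of -1.90 beside 0.04 for all probes tested, and 0 had an unadjusted p under 0.05. The median was 0.11 without week 6, -0.24 without week 9, -3.71 without week 12 and -3.33 without week 15.

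Ckm, the muscle creatine kinase, shows the pattern. Its low-fat levels were 5.79, 4.88, -6.31 and -3.64, and the Kal-1 arrays ran from -6.32 through -1.66 to 2.75. The low-fat arrays thus held both the highest and nearly the lowest of the 16 levels. Mb, the oxygen store myoglobin, had low-fat levels of 4.86, 5.07, -4.94 and -2.45 and Kal-1 levels from -6.42 through -1.20 to 1.92. Both genes were brightest on the low-fat arrays of weeks 6 and 9 and on the 20 µg array of week 15. The brightest probe of the list was that of Myl1, a myosin light chain, which was saturated on 3 of the 16 arrays, and 9 of the 12 genes cleared background on every array. Among the high-fat arrays without Kal-1, the list was at -1.42, -4.48, 4.71 and 0.56, so week 12 stood out there. The part of these fibre genes in any other difference was not tested.

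**Figure D2:**
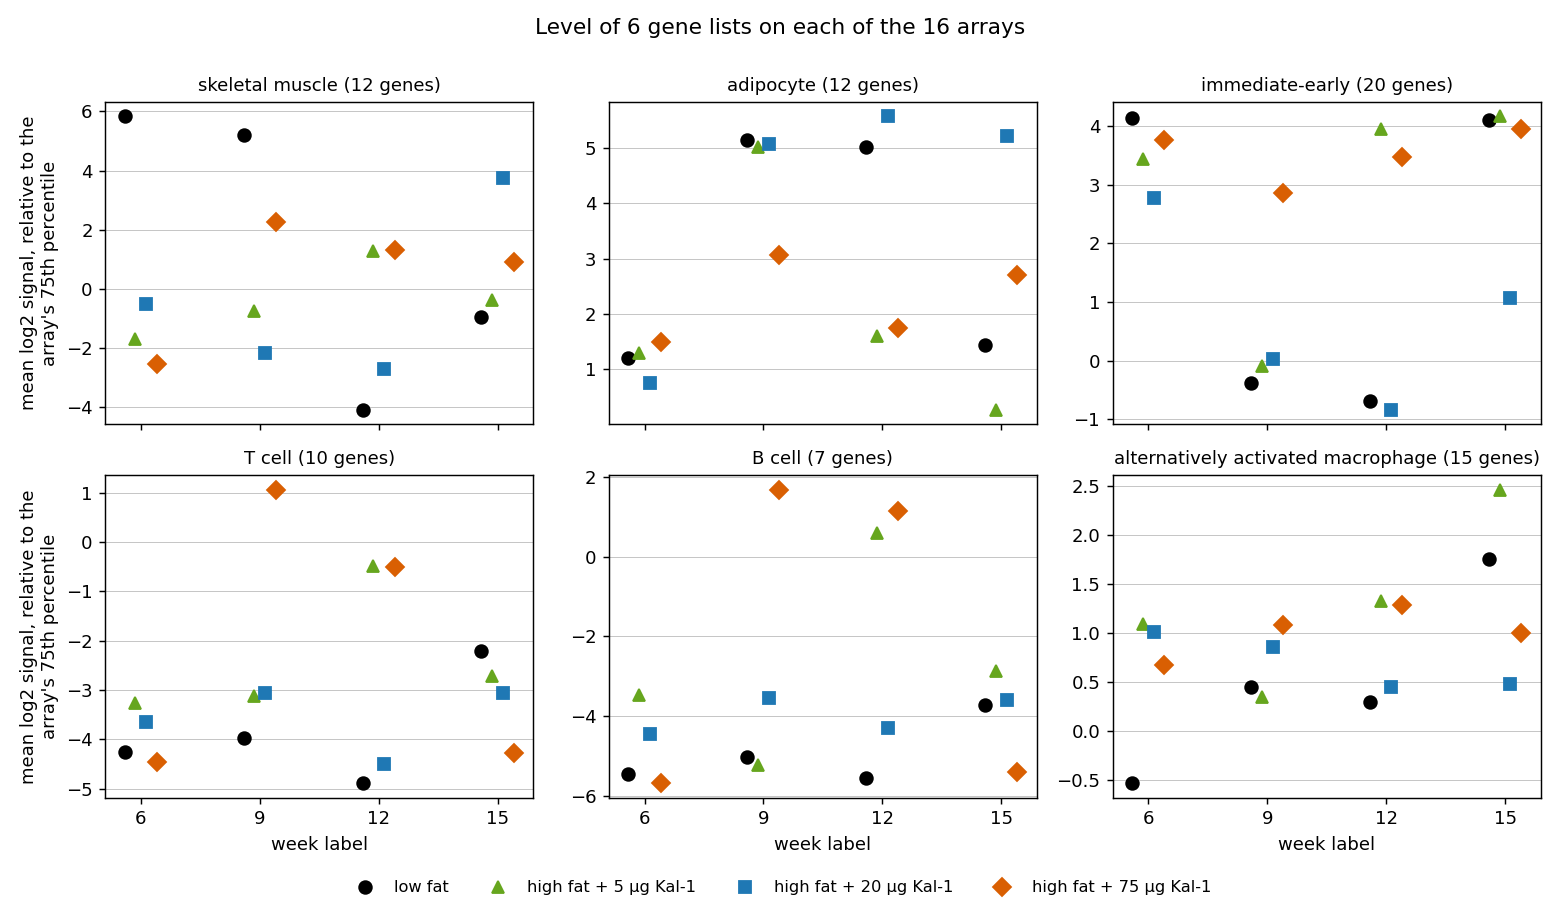
Mean log2 level of 6 gene lists, relative to the 75th percentile of each array, on the low-fat array (black circles) and the 5 µg, 20 µg and 75 µg Kal-1 arrays (green, blue and orange) at each labelled week. The skeletal muscle list was at 5.83 and 5.19 on the low-fat arrays of weeks 6 and 9 and at -4.10 at week 12, and the B cell list was highest on the 75 µg array of week 9 at 1.67.

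Adipocyte genes divided the arrays along another line. The mean level of the 12 genes was 1.20, 5.15, 5.01 and 1.44 on the low-fat arrays. With Kal-1 it was 5.02 and 5.08 on the 5 µg and 20 µg arrays of week 9, 5.57 on the 20 µg array of week 12 and 5.21 on the 20 µg array of week 15, and the 8 others lay between 0.27 and 3.07. The high-fat array of week 9 was at 4.83. High arrays therefore occurred in both groups, and the low-fat array was high at weeks 9 and 12 and low at weeks 6 and 15. The 4 high arrays of week 9 are those with WS in their titles, and whether they hold stromal vascular cells or whole fat tissue cannot be told. Of the 12 genes, 10 were lower over the 4 weeks, with a median of -0.40, which was 0.12 without week 12, and 0 reached an unadjusted p under 0.05. Lipe, the hormone-sensitive lipase, was not saturated on any array and had low-fat levels of -1.43, 2.93, 3.77 and -0.93 and Kal-1 levels from -1.98 through -0.79 to 4.15. Leptin, the satiety hormone encoded by Lep, had low-fat levels of -4.57, 2.86, 1.67 and -4.01 and Kal-1 levels from -5.32 through -2.78 to 3.78. Both were high on the same arrays, and the brightest probe of the list, that of the complement factor Cfd, was saturated on 7 of the 16. Of the 12 adipocyte genes, 5 also stand in another list.

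Genes of the immediate-early response ran the opposite way. These transcription factors are switched on within minutes by growth signals and by handling or digestion of tissue. The mean of the 20 tested genes was 4.15 and 4.11 on the low-fat arrays of weeks 6 and 15, and -0.39 and -0.69 at weeks 9 and 12. On the Kal-1 arrays it was -0.10 and 0.02 at 5 µg and 20 µg of week 9, -0.84 and 1.07 at 20 µg of weeks 12 and 15, and between 2.77 and 4.17 on the 8 others. The high-fat array of week 9 was at 1.80, and the array with 75 µg of week 9, with adipocyte genes at 3.07, was at 2.87. Klf6, a transcription factor of the Krüppel family, lay at 5.32, 3.93, 2.83 and 6.07 with low fat and from 3.52 through 5.43 to 6.09 with Kal-1. Over the 4 weeks 19 of 20 genes were higher with a median of 0.59, and the weekly medians were -0.64, 1.17, 2.85 and -0.86. What set these arrays apart was not tested.

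Inflammatory lists followed the same arrays. The 12 tested genes of the cytokine and enzyme list had mean levels of 0.09, -3.82, -4.70 and 0.24 on the low-fat arrays, and the 5 µg arrays lay at -0.45, -3.99, -0.31 and 0.92 at the same weeks. All 12 were higher over the weeks, with a median of 0.52 and weekly medians of -0.74, 1.47, 2.94 and -1.05. The low-fat array was low at weeks 9 and 12, as were the 5 µg and 20 µg arrays of week 9 and the 20 µg arrays of weeks 12 and 15, at -3.99, -2.84, -4.51 and -3.50, and the 75 µg array of week 9 was higher, at -0.83. The chemokine list had a median of 0.30 with 13 of 19 genes higher, and its weekly medians ran from 1.54 at week 12 to -1.41 at week 15. Without week 12 the medians of the inflammatory, chemokine and immediate-early lists were -0.18, -0.42 and -0.01, so their direction depended on that week. None of these genes had an unadjusted p under 0.05.

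De novo lipogenesis, by which fatty acids are built from sugar, was lower in every gene over the 4 weeks. The median of the 16 tested genes was -0.88, where 14139 of 30902 probes were lower over all probes tested and the median was 0.04. None passed the threshold and 2 had an unadjusted p under 0.05, Acly and Scd2, where 2.08% of all probes were lower at that p. The weekly medians were 0.19, -1.68, -2.50 and 0.46, so the direction came from weeks 9 and 12. At these weeks 5 and 4 of the 16 genes were at least 2-fold lower in all 3 doses, where 3.26% and 3.44% of all probes were. Under quantile normalization the median was -1.08, and under a normexp background correction -0.91. Without week 12 it was -0.28, and without week 9 -0.63.

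Acly makes the acetyl-CoA for fatty acid synthesis from citrate. Its low-fat levels were 0.01, 4.19, 5.30 and 0.12, and the Kal-1 arrays ran from -0.30 through 0.45 to 2.75. The low-fat arrays of weeks 9 and 12 lay above every Kal-1 array, and those of weeks 6 and 15 within their range. The difference was -1.81 with a standard error of 0.72 (unadjusted p = 0.0247, adjusted p = 0.974), and that of high fat alone was -2.48. Scd2, a desaturase that makes monounsaturated fatty acids, lay at 3.17, 5.64, 5.51 and 4.11 with low fat and from 2.49 through 3.26 to 4.66 with Kal-1. It was above all Kal-1 arrays at the same weeks, and its difference was -1.17. Scd2 was saturated on 2 arrays and Acly on 1, so their brightest levels are lower bounds.

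At week 9 the lipogenic genes can be set beside arrays of like adipocyte level, all of them with the letters WS in their titles. The adipocyte list was at 5.15 on the low-fat array and at 5.02, 5.08 and 4.83 on the 5 µg, 20 µg and high-fat arrays of that week. The lipogenesis list was at 3.66 on the low-fat array and at 2.46, 2.48 and 2.37 on the others. Its level was lower by more than 1 on all 3 high-fat-fed arrays, with or without Kal-1, while the adipocyte list differed little. The arrays were not alike in other ways. The muscle list was at 5.19 on the low-fat array and at -0.76, -2.19 and -4.48 on the 5 µg, 20 µg and high-fat arrays. Acaca, the acetyl-CoA carboxylase that commits carbon to fatty acids, was at 3.79 on the low-fat array against 1.34, 0.91 and 1.70. At week 12 the low-fat array and the 20 µg array were at 5.01 and 5.57 for the adipocyte list and at 4.13 and 3.65 for lipogenesis, and Acaca was at 4.61 and 3.14. With 1 array per diet, neither difference was tested, and 10 of the 12 adipocyte probes were saturated on at least 1 array, so a difference between bright levels may not show.

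Cholesterol synthesis and uptake genes, which share the SREBP regulators with lipogenesis, were lower in 18 of 22, with a median of -0.70. At weeks 9 and 12, 9 and 7 of the 22 were at least 2-fold lower in all 3 doses, beside 3.26% and 3.44% of all probes, the weekly medians were 0.26, -1.22, -1.89 and 0.15, and the median without week 12 was -0.32. Idi1, the isopentenyl diphosphate isomerase, was at 0.76, 2.74, 3.22 and 1.07 with low fat and from 0.57 through 1.19 to 1.82 with Kal-1. Dhcr7, the last reductase of the pathway, was at -0.75, 2.57, 3.30 and 0.35 with low fat and from -0.57 through 0.18 to 1.84 with Kal-1. Both were above every Kal-1 array on the low-fat arrays of weeks 9 and 12. At week 15 both were within the Kal-1 range, and at week 6 Idi1 was within it and Dhcr7 just below it. Their differences were -0.83 with a standard error of 0.34 and -1.02 with a standard error of 0.44 (unadjusted p = 0.0293 and 0.0352, adjusted p = 0.974 for both). Nsdhl was the remaining gene of the list at an unadjusted p under 0.05, where 2.08% of all probes were lower.

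Fatty acid oxidation was lower in 16 of 18 genes with a median of -0.73, and fatty acid uptake and storage in 14 of 17 with a median of -0.69. The weekly medians of oxidation were -0.51, -0.83, -2.54 and 0.93 and those of uptake 0.13, -1.0, -2.55 and 0.96. Their levels were high on the arrays where the adipocyte list was high: oxidation was at 1.51, 2.81, 3.46 and 0.48 on the low-fat arrays and at 2.77 and 2.51 on the 5 µg and 20 µg arrays of week 9, close to low fat. Without week 12 the medians were -0.09 and -0.02. At an unadjusted p under 0.05, 1 of the 18 oxidation genes was lower, beside 2.08% of all probes. This was Cpt1b, the muscle form of the enzyme that brings fatty acids into mitochondria. Its low-fat levels were 0.98, 1.26, 1.24 and -2.19, against -3.22 through -1.53 to 0.03 with Kal-1. The first 3 low-fat arrays lay above all 12 Kal-1 arrays and the array of week 15 among the lower ones, and the difference was -1.88 with a standard error of 0.61 (unadjusted p = 0.00782, adjusted p = 0.974). Without week 15 it was -2.86 (adjusted p = 0.00599).

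The respiratory chain list was lower in 22 of 22 genes with a median of -0.48. Of these, 1 gene, Atp5g1, had an unadjusted p under 0.05, where 2.08% of all probes were lower. The mean level of the list was 4.29, 5.02, 5.16 and 3.43 on the low-fat arrays and between 3.24 and 5.01 on the Kal-1 arrays. Levels above 4.6 occurred on the arrays with high adipocyte genes in both groups, and week 15 had the other sign, with a weekly median of 0.54. Its median without week 12 was -0.26. Brown and beige fat genes had a median of -1.1, with 10 of 13 lower, weekly medians of -0.02, -0.91, -2.82 and 1.05, and a median of -0.14 without week 12. Ucp1, which uncouples respiration to make heat, was at -4.79, -0.81, 2.01 and -4.53 on the low-fat arrays and from -6.36 through -2.71 to -0.55 with Kal-1. The low-fat array of week 12 had the highest Ucp1 level of the 16, and the high-fat array of week 9 had 2.51. Cox7a1, a cytochrome oxidase subunit of muscle and brown fat, was at 4.25, 4.78, 5.31 and -0.04 with low fat and from 0.11 through 1.38 to 3.51 with Kal-1. Tmem26, a surface marker of beige adipocytes, went the other way with 1.41, but was well above background on 1 of the 4 low-fat arrays. As with Cpt1b, for Cox7a1 the first 3 low-fat arrays were above all Kal-1 arrays, and the difference was -2.10 with a standard error of 0.72 (unadjusted p = 0.0113, adjusted p = 0.974). Without week 15 it was -3.33 (adjusted p = 0.00569). Cox7a1 was saturated on 1 array, so its brightest level is a lower bound. The direction of the 4 lists in the last paragraphs held under quantile normalization, normexp and a floor on dim values.

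**Figure D3:**
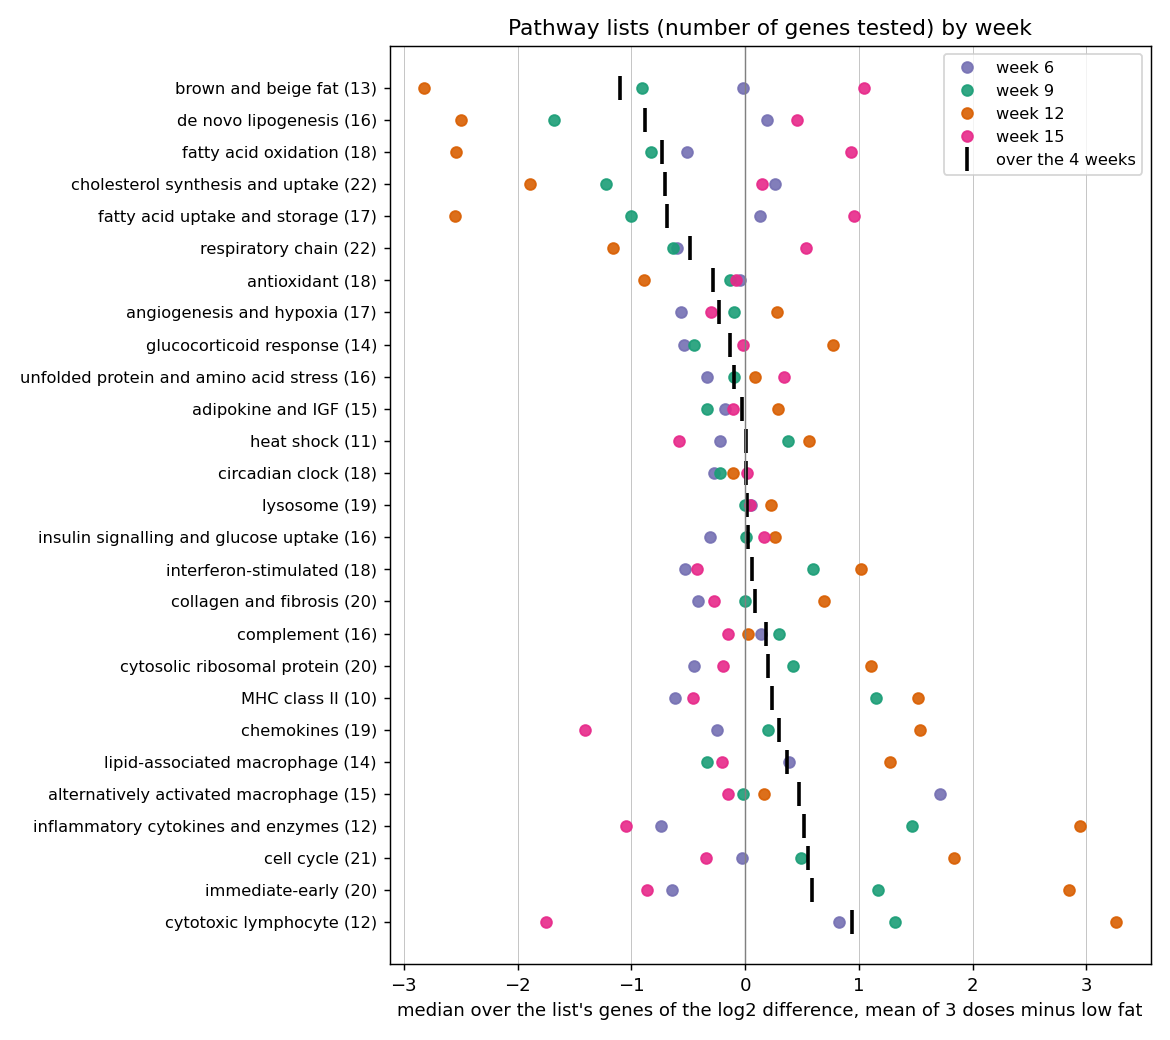
Median over the tested genes of each pathway list of the log2 difference between the mean of the 3 Kal-1 doses and low fat, by week (coloured points) and over the 4 weeks (black tick). De novo lipogenesis ran from -2.50 at week 12 to 0.46 at week 15, and alternatively activated macrophage genes stood at 1.71 at week 6 and between -0.15 and 0.17 at the other weeks.

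Most probes that were lower without week 15 belonged to 1 family. Of the 150, 124 (82.7%) were probes for copies of the glyceraldehyde-3-phosphate dehydrogenase gene, by their description in the files or by a run of at least 20 bases shared with such a probe. GAPDH is an abundant enzyme of glycolysis, and the mouse genome holds many processed pseudogenes of it. The 124 probes share sequence and may all read the same transcripts, so they are not independent measurements. The median level of the 124 was 4.75, 5.40, 5.17 and 2.27 on the low-fat arrays of weeks 6, 9, 12 and 15 and ran from 1.53 through 2.46 to 3.79 on the Kal-1 arrays. The first 3 low-fat arrays lay above every Kal-1 array, and the array of week 15 was below the median of the Kal-1 arrays. The weekly medians of the difference were -2.81, -2.87, -2.23 and 0.63, and the high-fat arrays without Kal-1 were at 2.57, 2.65, 3.52 and 2.65, like those with Kal-1. All 4 weeks together gave a median of -1.82, with a smallest adjusted p of 0.863. Some 45 of the 124 probes were saturated on at least 1 array.

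The following 4 probes of the family are printed to show how alike its sequences are. They were taken in order of adjusted p without week 15, 1 probe a gene, and a run of at least 20 bases in common was a condition for taking them, so that they share one is no finding. Capitals mark the run of 22 bases they share, which 68 of the 40628 probes on the array hold, and all 68 were among the 150. Their differences over the 4 weeks were -1.71, -2.04, -1.76 and -2.09 in the order given.
Gm10284: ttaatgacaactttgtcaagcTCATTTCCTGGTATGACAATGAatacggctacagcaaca
Gm2076: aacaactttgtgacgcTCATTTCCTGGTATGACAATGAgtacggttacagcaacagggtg
Gm4654: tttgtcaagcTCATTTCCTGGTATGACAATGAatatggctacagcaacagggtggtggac
Gm5760: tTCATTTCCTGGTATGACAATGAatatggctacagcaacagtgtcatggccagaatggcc

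The 4 probes named Gapdh itself had a median difference of -0.33 and weekly medians of -1.53, -0.45, -0.03 and 0.67. Each of the 4 was saturated on at least 2 of the 4 low-fat arrays, so a difference at the bright end cannot be read from them. The least saturated of them, on 2 low-fat and 0 Kal-1 arrays, differed by -1.01, with weekly differences of -2.27, -1.37, -1.02 and 0.63. Over all 233 tested probes of the family, the median difference was -1.69.

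The other 26 probes of the 150 were mixed, and some were probes of glycolytic genes. Pfkm, the muscle phosphofructokinase, was at 5.49, 5.10, 2.51 and 0.82 on the low-fat arrays and from 0.15 through 1.38 to 2.77 with Kal-1. Pgk1, the phosphoglycerate kinase of glycolysis, was at 4.53, 4.92, 5.01 and 3.17 with low fat and from 2.84 through 3.55 to 4.29 with Kal-1. In both, the arrays of weeks 6 and 9 were above all Kal-1 arrays and week 15 was not. Without week 15 their differences were -3.00 (adjusted p = 0.00609) and -1.41 (adjusted p = 0.0401), and with it -2.13 (adjusted p = 0.863) and -0.90 (adjusted p = 0.974). Pkm2, the pyruvate kinase listed in RefSeq as Pkm, was at 2.92, 3.98, 4.83 and 1.46 with low fat and from 0.21 through 1.66 to 2.57 with Kal-1, and 2 further probes were described as similar to pyruvate kinase and 1 as similar to aldolase. Ak1, an adenylate kinase, Prkaa2, the alpha 2 catalytic subunit of AMP-activated kinase, Adssl1 and Tuba8 were also among them, with differences without week 15 between -3.85 and -2.31. Others were Psme3, a proteasome activator, Ube2b, a ubiquitin-conjugating enzyme, Sar1b, a GTPase of secretion, and Wisp2, a secreted Wnt target listed as Ccn5. Sgsm1, Adprhl1, Gm5210, Gm6419, Gm5069 and Gm6498 were also among the 26.

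On the low-fat array of week 12 the GAPDH-like probes were at a median of 5.17. The muscle list was there at -4.10 and the adipocyte list at 5.01. On the 5 µg and 20 µg arrays of week 9 the GAPDH-like probes were at 2.59 and 1.85. There the muscle list was at -0.76 and -2.19 and the adipocyte list at 5.02 and 5.08. The low-fat arrays of weeks 6 and 9 were at 4.75 and 5.40. They had the muscle list at 5.83 and 5.19 and the adipocyte list at 1.20 and 5.15. The 20 µg array of week 15, the highest Kal-1 array at 3.79, had these lists at 3.75 and 5.21. The high-fat array of week 12 was at 3.52 with the lists at 4.71 and 2.64. The 20 µg array of week 12 was at 3.70 with the lists at -2.71 and 5.57. None of the 150 probes belongs to the 12-gene muscle list, whose weekly medians were -7.43, -5.72 and 4.14 at weeks 6, 9 and 12. With the sign turned at week 12, its genes could hardly be called lower over these weeks. Their absence therefore says nothing about muscle RNA. With weeks 6 and 9 both left out, 0 probes passed and 194 had an unadjusted p under 0.05, and with weeks 9 and 12 left out there were 0 and 577. The part of muscle or adipocyte RNA in the 150 was not tested.

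**Figure D4:**
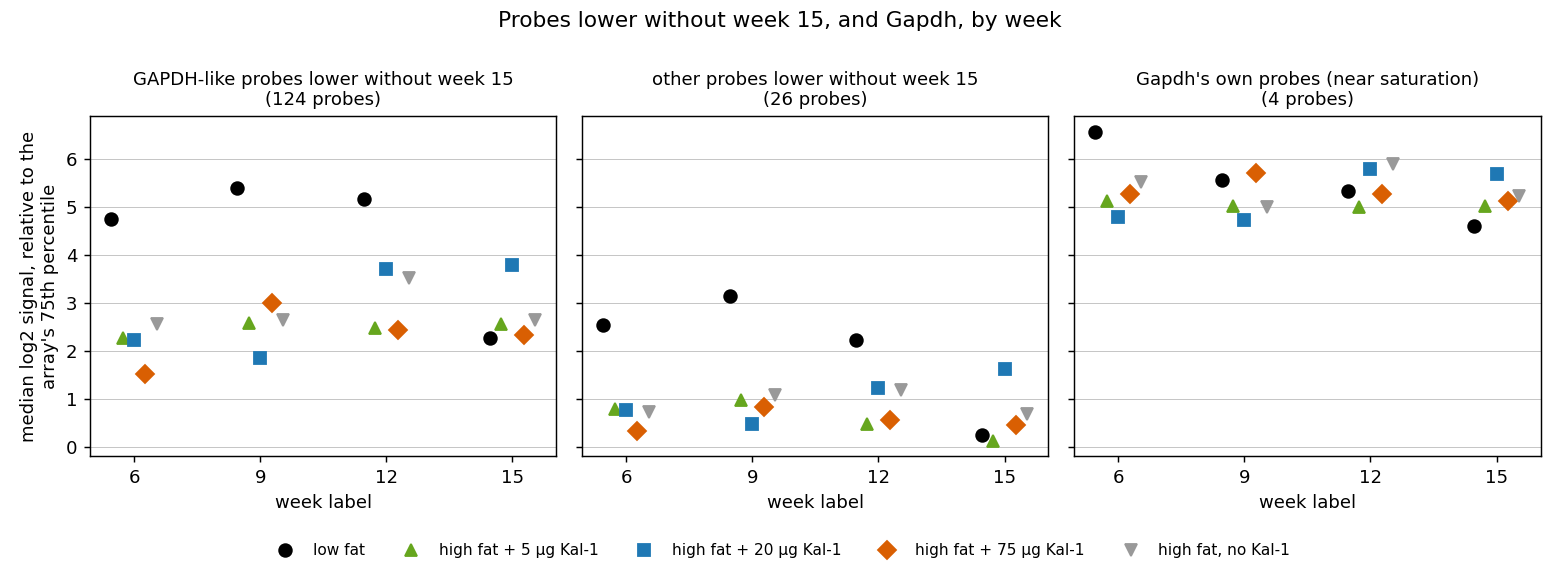
Median log2 level, relative to the 75th percentile of each array, of 124 GAPDH-like probes and 26 other probes that were lower with Kal-1 when week 15 was left out, and of the 4 probes named Gapdh, by labelled week and diet, with the high-fat arrays without Kal-1 in grey. The GAPDH-like probes were at 4.75, 5.40 and 5.17 on the low-fat arrays of weeks 6, 9 and 12 and at 2.27 at week 15.

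Lymphocyte genes were higher on some Kal-1 arrays. The 7 tested genes of the B cell list were all higher over the weeks with a median of 1.94, the 10 of the T cell list with 1.37, and the 12 of the cytotoxic lymphocyte list with 0.94. Without week 12 these medians were 0.99, 0.56 and 0.28. None had an unadjusted p under 0.05. The mean level of the B cell list was -5.47, -5.03, -5.56 and -3.74 on the low-fat arrays. It was 1.67 on the 75 µg array of week 9 and 0.58 and 1.15 on the 5 µg and 75 µg arrays of week 12, and the 9 other Kal-1 arrays lay between -5.69 and -2.88. So 3 arrays stood far above the rest and the others overlapped the low-fat arrays. Ms4a1, the B cell antigen CD20, was at -4.25, -2.62, -3.89 and -0.98 with low fat and at 3.90, 3.17 and 3.56 on those 3 arrays. Cd3d, a chain of the T cell receptor complex, was at -2.27, -1.74, -3.91 and 0.06 with low fat and at 4.17, 2.33 and 2.48 on the same arrays.

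Markers of lymph node stroma were high on the same 3 arrays, with 6 of 7 genes higher over the weeks and a median of 1.86, which was 0.39 without week 9. The mean of the 7 tested genes was 1.52 on the 75 µg array of week 9 and 0.99 and 1.15 on the 5 µg and 75 µg arrays of week 12, between -4.24 and -1.13 on the 9 other Kal-1 arrays, and -3.49, -4.25, -4.56 and -1.86 on the low-fat arrays. Ltb, the lymphotoxin that lymphocytes use to maintain lymph node structure, was at 4.86, 4.23 and 4.26 on these arrays and at most 0.95 on the low-fat ones. Glycam1, a mucin of the vessels through which lymphocytes enter lymph nodes, was at 3.93, 3.80 and 4.08 on the 3 arrays, and was well above background on 6 of the 12 Kal-1 arrays and 1 of the 4 low-fat arrays. On the high-fat arrays the list was highest at week 15, at 1.20, so an array of this kind also occurred without Kal-1. Of the 7 genes measured, 2 also stand in the B cell list, Ccl21a had no probe, and the brightest was Ccl19. The part of lymph node tissue in the lymphocyte lists was not tested. MHC class II genes, which present antigen on B cells and macrophages, were higher in 9 of 10 with a median of 0.24, which was -0.10 without week 12, and their highest mean levels, 2.61, 1.79 and 1.82, were again on those arrays. Cell cycle genes were higher in 19 of 21 with a median of 0.55, which was 0.09 without week 12.

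The alternatively activated macrophage list differed most at week 6. Of its 15 genes, 9 were at least 2-fold higher in all 3 doses at week 6, where 1.7% of all probes were, against 0 at weeks 9 and 15 and 2 at week 12. The mean level was -0.53, 0.45, 0.30 and 1.76 on the low-fat arrays and ran from 0.35 through 1.00 to 2.46 with Kal-1. The low-fat array of week 6 lay well below the Kal-1 range, that of week 12 just below it, and the other 2 within it. Clec10a, a lectin of macrophages and dendritic cells, was at 1.51, 4.48, 4.18 and 4.30 with low fat and from 3.50 through 4.23 to 5.14 with Kal-1. Ccl24, an eosinophil attractant, was at -1.02, 1.94, 0.55 and 2.50 with low fat and from 0.93 through 1.82 to 2.87 with Kal-1. Mrc1, the mannose receptor, was at 0.50 on the low-fat array of week 6 and at 1.65, 1.84 and 2.02 with the 3 doses, and the high-fat array of that week was at 2.74. At week 6 the low-fat array was thus below all 3 doses in these genes, and it was also the array highest in muscle fibre genes. At week 12 it was below all 3 doses in the list level, by less, and in Ccl24.

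Over the 4 weeks, 13 of the 15 were higher with a median of 0.47, and the median without week 6 was -0.08. The general macrophage list was higher in 10 of 12 with a median of 0.22, the lipid-associated macrophage list in 11 of 14 with 0.37, and the lysosome list in 10 of 19 with 0.02, and -0.05 without week 15. The weekly medians of the lipid-associated list were 0.39, -0.33, 1.27 and -0.20, largest at week 12, and its median without that week was 0.12. The high-fat arrays without Kal-1 differed from low fat by medians of 0.97, 0.86, 0.83 and 0.23 for the same 4 lists. Kal-1 minus high fat, which shares the Kal-1 arrays, gave -0.64, -0.44, -0.41 and -0.27. None of the genes passed a threshold in any of these comparisons.

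In the mast cell list, 2 proteases were higher at every week. Cma1, the mast cell chymase, was at -1.92, 0.11, 0.36 and 0.15 with low fat and from -1.84 through 0.83 to 2.33 with Kal-1. Mcpt4, another chymase, was at -2.35, -0.41, 0.13 and -0.02 with low fat and from -1.73 through 0.31 to 1.88 with Kal-1. The groups overlapped, and the weekly differences were 1.32, 1.22, 0.68 and 0.99 for Cma1 and 1.13, 1.14, 0.43 and 0.83 for Mcpt4. The fitted differences were 1.05 with a standard error of 0.43 and 0.88 with a standard error of 0.39 (unadjusted p = 0.0289 and 0.0387, adjusted p = 0.974 for both). High fat alone differed from low fat by 2.07 and 1.90. The list of 7 tested genes had a median of 0.65 with 6 higher, and a median of -0.05 at week 12. At an unadjusted p under 0.05, 2 of the 7 were higher, beside 1.29% of all probes.

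Antioxidant genes were lower in 15 of 18 with a median of -0.28, which was -0.18 without week 12 and -0.49 without week 15. At an unadjusted p under 0.05, 2 of the 18 were lower, beside 2.08% of all probes. Besides Srxn1, Gclm had an unadjusted p under 0.05. It encodes the modifier subunit of the enzyme that limits glutathione synthesis, and lay at -1.0, -1.49, -1.62 and -2.47 with low fat and from -3.47 through -2.73 to -1.60 with Kal-1. Its difference was -1.0 with a standard error of 0.33 (unadjusted p = 0.00899, adjusted p = 0.974), with weekly differences of -1.11, -1.22, -1.40 and -0.28. The low-fat arrays of weeks 6 and 9 lay above every Kal-1 array, and those of weeks 12 and 15 within the Kal-1 range. The circadian list of 18 was split with 10 higher and a median of 0.01, which was -0.02 under quantile normalization, -0.01 with a floor and -0.17 without week 15.

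Of the remaining lists, neutrophil genes had a median of 0.68 with 9 of 10 higher. Their weekly median was 2.29 at week 12, and the median without that week was 0.42. Epithelial genes had 0.23 with 5 of 10 higher, which was -0.18 without week 9 and -0.44 without week 12. Their mean levels of 2.31 on the low-fat array of week 6 and -5.60 and -5.50 at weeks 9 and 12 lay beside Kal-1 arrays at 2.27, 1.83 and 0.23 in week 6 and at -5.61, -3.89 and -3.66 in week 9. At week 15 the arrays of 1 week were far apart, with low fat at 0.29 and Kal-1 at 1.51, -3.90 and -2.39. Cytosolic ribosomal protein genes had 0.20 with 18 of 20 higher, and -0.06 without week 12, complement genes 0.18 with 10 of 16 higher, and 0.07 without week 12, and collagen and fibrosis genes 0.09 with 12 of 20 higher, and -0.19 without week 12. Of the complement list, Cfp, which stabilises the alternative pathway convertase, differed by 0.52 with a standard error of 0.21. The fibroblast and stromal progenitor list stood at 0.06, at -0.01 under quantile normalization and at -0.09 without week 12. Interferon-stimulated genes stood at 0.06 and at -0.15 without week 12, insulin signalling and glucose uptake at 0.03 and at -0.03 without week 9, heat shock at 0.01 and at -0.11 without week 9, and adipokine and IGF genes at -0.03 and at 0.07 without week 9. Under normexp the last 2 were at -0.08 and 0.04. The sex gene list stood at -0.04, at 0.11 under normexp and at 0.21 without week 9, and endothelial genes at -0.05, at 0.04 under quantile normalization and at 0.21 without week 15. Erythroid genes, with 4 of 6 genes tested, stood at -0.06 and at 0.22 without week 12, stress genes of the unfolded protein and amino acid response at -0.10 and glucocorticoid response genes at -0.13. Angiogenesis and hypoxia genes stood at -0.23 and at 0.02 under normexp. Of the 17 tested, Pgk1 and Egln3 were lower at an unadjusted p under 0.05, beside 2.08% of all probes. Of the stress list, Pdia4, a protein disulfide isomerase of the endoplasmic reticulum, was higher at every week and differed by 0.68 with a standard error of 0.26.

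The 3 doses were not alike in how many probes differed. Each dose alone against low fat gave 0 probes at an adjusted p under 0.05 with limma. At an unadjusted p under 0.05 there were 1630 for 5 µg (5.27%), 1157 for 20 µg (3.74%) and 6552 for 75 µg (21.2%), with smallest adjusted p of 0.79, 0.966 and 0.174. Without week 15, 75 µg gave 215 probes, 29 higher and 186 lower. Without week 12 it gave 0, with 2234 at an unadjusted p under 0.05. A test of the doses against each other gave 0 probes at an adjusted p under 0.05, 7669 (24.8%) at an unadjusted p under 0.05, and a smallest adjusted p of 0.118. Without week 12 the count at an unadjusted p under 0.05 was 3816. The doses share the low-fat arrays, and the dose groups also differed in markers: the adipocyte list was near 5 on 3 of 4 arrays with 20 µg, 1 of 4 with 5 µg and 0 of 4 with 75 µg. The median over the lipogenesis list was -1.51 for 5 µg, 0.35 for 20 µg and -1.76 for 75 µg, and that over the immediate-early list 1.03, -1.0 and 1.76. The 75 µg arrays of weeks 6 and 9 were scanned on another day than the other arrays of the same week. The parts of adipocyte RNA and of scan day in the dose differences were not tested.

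The named genes varied in how far apart the 3 doses lay, and no probe passed the test of the doses against each other. Polm differed from low fat by 1.07, 0.72 and 1.35 at 5 µg, 20 µg and 75 µg, Tbc1d14 by 0.62, 0.58 and 0.60, Tlr6 by 1.35, 1.40 and 1.33, and Homer2 by -1.44, -1.62 and -1.63. Since the named genes were picked for a like difference over all Kal-1 arrays, evenness follows in part from that choice. Gm5085 differed by -3.24, -1.55 and -2.34, Fam57b by -1.46, -1.38 and -2.66, Pstpip2 by -1.35, -0.69 and -1.46, and Srxn1 by -0.56, -1.03 and -1.23. Wisp2 was the exception among the 26 other probes lower without week 15 in that high fat alone differed little from low fat, by -0.25, beside -1.23 with Kal-1. Its high-fat levels were 2.33, -0.98, 0.40 and 1.16 against -1.41 through -0.27 to 0.94 with Kal-1, so the high-fat arrays of weeks 6 and 15 lay above all Kal-1 arrays. Ftcd, an enzyme of histidine breakdown, had different signs, with 1.75 for Kal-1 and -0.72 for high fat alone.

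Against the high-fat diet without Kal-1, the Kal-1 arrays gave 0 of 31440 probes at an adjusted p under 0.05 with limma and 1024 (3.26%) at an unadjusted p under 0.05. High fat alone against low fat gave 0 and 1486 (4.73%), with a smallest adjusted p of 0.905. These comparisons share arrays with that of Kal-1 and low fat, and their values are given side by side. For the list medians named above, high fat minus low fat was -1.58 for lipogenesis, -0.96 for cholesterol, -1.69 for skeletal muscle, 2.54 for B cells and 1.42 for immediate-early genes, where Kal-1 minus low fat was -0.88, -0.70, -1.90, 1.94 and 0.59.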

How the data were processed

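The labels gave diet, dose and week, and each array's group was taken from them. Per the file headers, the authors deposited intensity values from which Feature Extraction had subtracted the background, with no normalization between arrays. The headers give version 10.5.1.1 and the labels 9.1. Of 43803 spots per array, outliers were dropped and spots of a probe averaged, which gave 40628 probes. From each log2 intensity the array's own 75th percentile was subtracted. The median ratio of signal to background ran from 3.5 to 10.8. Probes clearly over background in 50% or more of the low-fat arrays, or of the Kal-1 arrays, were fitted with limma 3.58.1 in R 4.3.3, with week as block and a Benjamini-Hochberg adjusted p under 0.05, two-sided. Other steps used Python 3.11.15, NumPy 2.4.6, pandas 2.3.3, SciPy 1.17.1 and Matplotlib 3.10.9. The fit was tested on simulated data with a spread well below that of the real arrays. That test cannot show how large a change would be found in these data. RefSeq symbols (GRCm38.p6) were matched by accession for 28136 of 40628 probes.

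Named genes were to be the 12 largest differences in each direction past the threshold with 1 sign at all 4 weeks, a gene symbol (not an accession or locus number) and levels clearly over background in 50% or more of the higher group, 1 probe per gene with the highest mean level. As none passed, the smallest unadjusted p filled both lists. Some genes are not reported here, and their places were not filled again. List genes were represented by the brightest probe. The plan was to name up to 4 per list by level. The list genes named here, including those for an unadjusted p under 0.05, probes without overlap, genes called without week 15 and other single examples were picked after their values were seen. The members and lists were chosen with earlier results of these data known.

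Alternatives were normexp with an offset of 50, quantile normalization, a floor on dim values, other filters, no replicate block, 1 value per week, a term per dose, a t-test, each array and each week left out, and weeks 3 and 18 added. Week 3 was left out for its dim low-fat array and week 18 for labels that conflict on the dose.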

Additional observations from a re-analysis of the deposited data

Results flagged for a closer look

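In 168 groups of 4 arrays, formed by list or array measure and diet, 8 had an array far from the 3 others, and chance flags about 1 in 20 groups, which is 8.4 of 168. Of these, 5 were the 20 µg array of week 6. It was low in the lists of adipocyte genes (0.75, against 5.08 to 5.57 on the other 20 µg arrays), fatty acid uptake and storage (-0.34, against 2.83 to 3.28), insulin signalling and glucose uptake (1.11, against 2.20 to 2.38), brown and beige fat (-3.09, against -0.99 to -0.68) and unfolded protein and amino acid stress (0.44, against 0.94 to 0.98). The other 3 were the 5 µg array of week 9, which was high in fatty acid oxidation (2.77, against 0.40 to 0.70) and in fatty acid uptake and storage (2.86, against -0.33 to 0.18) and low in immediate-early genes (-0.10, against 3.44 to 4.17). The groups hold different weeks, so an array apart may be a week apart, and this was not tested.

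The skeletal muscle list differed in opposite directions at different weeks. The mean of the 3 doses differed from the low-fat array by -7.41 at week 6 and by 4.06 at week 12, a span of 11.47, and all 3 doses moved the same way at each of these weeks. The difference between the weeks was not tested for the list. For single probes, a test of whether the weekly differences differed gave 0 of 30801 at an adjusted p under 0.05.

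At week 18, which the comparison does not use, the 3 Kal-1 arrays lay above the low-fat array by at least 1 in 11 of the lists with 5 or more genes measured on all 4 arrays. The smallest of the 3 gaps was 7.20 for skeletal muscle, 4.94 for adipokine and IGF genes, 4.92 for endothelial genes, 4.79 for adipocyte genes, 4.49 for collagen and fibrosis, and 4.01 for fibroblast genes. It was 3.40 for chemokines, 3.19 for brown and beige fat, 2.12 for lymph node stroma, 2.04 for complement, and 1.1 for angiogenesis and hypoxia. The 3 lay below the low-fat array by at least 1 in 4 lists: neutrophil (0.06 to 1.03, against 5.38), cell cycle (-2.29 to -1.59, against 3.33), B cell (-3.09 to -0.58, against 1.74) and MHC class II (-0.27 to 0.19, against 1.35). The low-fat array of week 18 had adipocyte, fibroblast and endothelial lists at -4.16, -3.12 and -3.97, and the erythroid list at 6.48. Of the Kal-1 arrays, 1 had 21710 spots marked as outliers, and only list genes with a value on all 4 arrays were used.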

How the results depend on the processing

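The count of 0 for Kal-1 minus low fat was the same in 34 of 37 alternatives, normexp, quantile normalization, no filter and no replicate block (0) included, with 194 to 3233 probes at an unadjusted p under 0.05. Of these, asking in addition for a 2-fold difference could only give 0. Leaving out the WS arrays of week 9 removed the whole week and repeated the fit without it. Leaving out 1 array at a time gave 0 to 145. It was 150 without week 15, all lower, and the cause was not tested. For 75 µg alone, 215 passed without week 15. The counts at least 2-fold in all 3 doses were 910, 694, 1126 and 235 at weeks 6, 9, 12 and 15 under normexp, and 1049, 1112 and 384 at weeks 6, 9 and 15 among probes well above background on all 4 arrays of the week, which are fewer probes. The sets left out after seeing the data were weeks 6 and 9, weeks 9 and 12, the 20 µg arrays of weeks 12 and 15, and all 75 µg arrays, each with a count of 0. A slide block could not be fitted, since 1 slide holds more than 1 of the arrays. Of 22 named genes, Skp2 turned to -0.20 with week 3 added, and Tcea3 passed without week 15. Under normexp 2310081J21Rik went from -1.97 to -0.38, Homer2 from -1.56 to -0.77, Ftcd from 1.75 to 0.90, Tpd52l1 from -2.04 to -1.17 and Skp2 from 1.03 to 0.59. With week 3 added Ftcd was at 0.23, B3gnt8 went from 1.06 to 0.52, Rce1 from 0.67 to 1.19 and Ube2f from -0.66 to -0.27. With week 18 added Tbc1d14 went from 0.60 to 0.17, Skp2 from 1.03 to 0.17, Rce1 from 0.67 to 0.33, Mpg from 0.77 to 0.32, Polm from 1.05 to 0.64, B3gnt8 from 1.06 to 0.61 and Tlr6 from 1.36 to 0.87. Tcea3 went from -2.25 to -0.88, Tpd52l1 from -2.04 to -0.91, Fam57b from -1.84 to -0.76, 2310081J21Rik from -1.97 to -1.27, Srxn1 from -0.94 to -0.37, and Ddr2 from 1.04 to 2.74. Without the low-fat array of week 12, 5430435G22Rik went from 1.44 to 0.64 and Ddr2 from 1.04 to 0.66. Normexp moved the median of all probes to 0.19, and to 0.53 and 0.44 at weeks 9 and 12, which list medians under normexp include. Of 120 list medians under the 3 scalings 8 turned sign, the largest with a size of 0.23, and of 480 weekly medians 25 did. Signal over background limits the dim genes, and saturation the brightest ones.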
